A study of Mus musculus with 5 samples.

Results

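The genes that write and erase DNA methylation were examined for their own CpG methylation in leukemic blasts with and without *Tet2*. The 9 genes were taken by symbol from the GENCODE annotation of the mouse genome (GRCm38), out of 21755 protein-coding genes on the autosomes and the X chromosome. They were the maintenance pair *Dnmt1* and *Uhrf1*, the de novo group *Dnmt3a*, *Dnmt3b* and *Dnmt3l*, the dioxygenases *Tet1*, *Tet2* and *Tet3*, and the glycosylase *Tdg*. Methylation was measured by whole-genome bisulfite sequencing of acute myeloid leukemia (AML) blasts of C57BL/6 mice (C57BL/6J by the study's methods). All blasts carried Cebpa-/p30, that is, loss of 1 *Cebpa* allele and a second allele that yields only the short p30 form of this myeloid transcription factor. The Tet2+/+ group held 2 libraries (numbers 23 and 24) and the Tet2-/- group held 3 (numbers 5, 7 and 8), each a separate leukemia by the design text. Deletion of floxed alleles was driven by Cre under the interferon-inducible *Mx1* promoter, which is active in blood cells and in other tissues, after transplantation of marrow into irradiated C57BL/6J.SJL recipients. Injection of Poly(I)-Poly(C) into the recipients induced this deletion. Live CD45.2+ donor cells without CD3, B220 and Ter119 were sorted from bone marrow, so cells with these lymphoid and erythroid markers were left out and no single myeloid type was selected. The labels give no age, and methylation calls hold no transcript levels with which to check the cell type. A difference within cells and a different mixture of cells or clones cannot be told apart in these bulk libraries.

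Methylation of CpG sites is copied at replication by DNMT1, which UHRF1 brings to hemimethylated DNA. DNMT3A and DNMT3B set new marks, and DNMT3L, a relative without catalytic activity, stimulates them. The TET enzymes oxidize 5-methylcytosine to 5-hydroxymethylcytosine and further forms, which TDG excises before repair. *DNMT3A* and *TET2* are among the genes most often mutated in human clonal hematopoiesis and AML. Bisulfite reads 5-methylcytosine and 5-hydroxymethylcytosine alike, so every level given here is the sum of both.

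The sequences that carry the main contrasts are given first, as reference sequence of GRCm38 on the strand of the gene, in lower case with each CpG in capitals. The RefSeq promoter of *Tet2* (chr3:133544391-133544640, minus strand, 250 bases before the start) is shown as an example of a CpG-dense start with hardly any methylation. It holds 51 CpGs, and its level was 0.83% and 0.00% in the Tet2+/+ libraries and 0.00%, 0.87% and 0.00% in the Tet2-/- libraries, over 16 to 344 calls.
*Tet2* promoter: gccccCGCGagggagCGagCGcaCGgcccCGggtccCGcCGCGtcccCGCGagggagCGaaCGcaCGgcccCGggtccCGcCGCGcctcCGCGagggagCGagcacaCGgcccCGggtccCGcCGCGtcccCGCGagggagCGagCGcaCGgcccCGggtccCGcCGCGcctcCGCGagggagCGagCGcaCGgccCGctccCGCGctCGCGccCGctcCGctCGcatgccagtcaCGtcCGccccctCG

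The other stretches are the fixed 300 bp windows with the largest differences between the groups, 1 per gene, among 340 windows that had at least 4 CpG dyads and 20 calls in every library. They were picked by their values and are a description with no test. Of the 340 windows, 254 had a higher mean in Tet2-/-, or 74.7%, against 76.7% of the 356159 such windows in and around all protein-coding genes. The *Dnmt3b* window (chr2:153677401-153677700, plus strand) overlaps an exon by 149 bp. It was methylated at 32.4% and 31.7% in Tet2+/+ and at 80.0%, 90.0% and 87.9% in Tet2-/-.
*Dnmt3b* window: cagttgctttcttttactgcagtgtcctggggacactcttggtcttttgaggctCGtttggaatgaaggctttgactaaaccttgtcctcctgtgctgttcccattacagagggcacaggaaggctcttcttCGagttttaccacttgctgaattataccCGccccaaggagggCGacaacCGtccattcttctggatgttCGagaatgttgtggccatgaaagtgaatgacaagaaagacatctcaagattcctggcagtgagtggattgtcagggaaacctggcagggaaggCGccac
The *Tet1* window (chr10:62870101-62870400, minus strand) lies in an intron and holds 9 CpGs. Its level was 37.9% and 23.8% in Tet2+/+ and 78.2%, 76.6% and 87.5% in Tet2-/-.
*Tet1* window: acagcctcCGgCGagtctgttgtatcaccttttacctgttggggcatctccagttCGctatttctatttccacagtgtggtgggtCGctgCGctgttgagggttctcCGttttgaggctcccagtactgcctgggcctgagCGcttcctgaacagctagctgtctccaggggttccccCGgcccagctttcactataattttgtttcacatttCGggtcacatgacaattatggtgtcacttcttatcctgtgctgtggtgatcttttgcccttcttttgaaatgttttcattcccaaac
The *Tdg* window (chr10:82631101-82631400, plus strand) lies in an intron 1422 bp from the 5′ end of the gene, beyond its unmethylated promoter. It was methylated at 37.5% and 29.0% in Tet2+/+ and at 76.9%, 83.8% and 80.0% in Tet2-/-.
*Tdg* window: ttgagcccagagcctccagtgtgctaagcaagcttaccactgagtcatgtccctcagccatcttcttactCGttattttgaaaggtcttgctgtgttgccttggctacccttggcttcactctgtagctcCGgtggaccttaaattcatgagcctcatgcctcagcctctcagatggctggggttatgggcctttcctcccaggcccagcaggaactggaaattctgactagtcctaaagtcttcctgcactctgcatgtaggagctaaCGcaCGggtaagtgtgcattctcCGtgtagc
The *Tet2* window (chr3:133518001-133518300, minus strand) is intronic, 26989 bp from the 5′ end and outside the deleted segment. Its level was 53.6% and 41.4% in Tet2+/+ and 90.0%, 93.1% and 95.5% in Tet2-/-.
*Tet2* window: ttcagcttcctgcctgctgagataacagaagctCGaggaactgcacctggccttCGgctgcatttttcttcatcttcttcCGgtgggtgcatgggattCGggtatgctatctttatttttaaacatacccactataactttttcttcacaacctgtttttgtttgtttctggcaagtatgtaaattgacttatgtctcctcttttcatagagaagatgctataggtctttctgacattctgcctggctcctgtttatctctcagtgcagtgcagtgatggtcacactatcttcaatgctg
All 4 windows were of low CpG density, with 4 to 9 CpGs, and each rested on 20 to 55 calls per library.

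The libraries held 63111735 to 110752967 calls over 21353092 CpG dyads (a CpG with both of its strands), or 2.96 to 5.19 calls per dyad. Over the genome, the level was 67.3% and 62.3% in Tet2+/+ and 70.9%, 74.8% and 68.4% in Tet2-/-. Library 7 was the most methylated and library 24 the least, and values of the 9 genes are read against this spread. The methylation level of a region is its methylated calls over all its calls, summed over dyads. A region was tested when every library had at least 20 calls.

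*Tet2* itself checked the labels. Matches of the genotyping primers of the study to the reference bound a segment of 1871 bp (chr3:133466391-133468261) with 34 dyads. It covers 1800 bp of the last exon, exon 12 of 12 of transcript Tet2-204, and 71 bp of the intron before it. The exon part encodes codons 1437 to 1920 of 1920, or 25.2% of the coding sequence, at the carboxy-terminal end of the catalytic part of TET2. The segment had 121 and 150 calls in the Tet2+/+ libraries and 0 calls in each Tet2-/- library. Relative to the depth per dyad of 500 kb on each side, that was 101% and 132% in Tet2+/+, against 0% with upper limits (3 counts) of 1.86%, 1.90% and 3.31% in libraries 5, 7 and 8. The difference of group means was -116 percentage points (exact permutation test over 10 splits, two-sided, p = 0.1, the smallest that 2 against 3 libraries allow). No call from the undeleted allele was thus seen in any Tet2-/- library. The run of dyads without a Tet2-/- call went from after position 133466389 to before 133468385, 1995 bp and 36 dyads, and so went slightly past the primer match that bounds the segment on the 5′ side of the gene. In the Tet2+/+ libraries the segment was methylated at 92.6% and 87.3%.

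**Figure D1:**
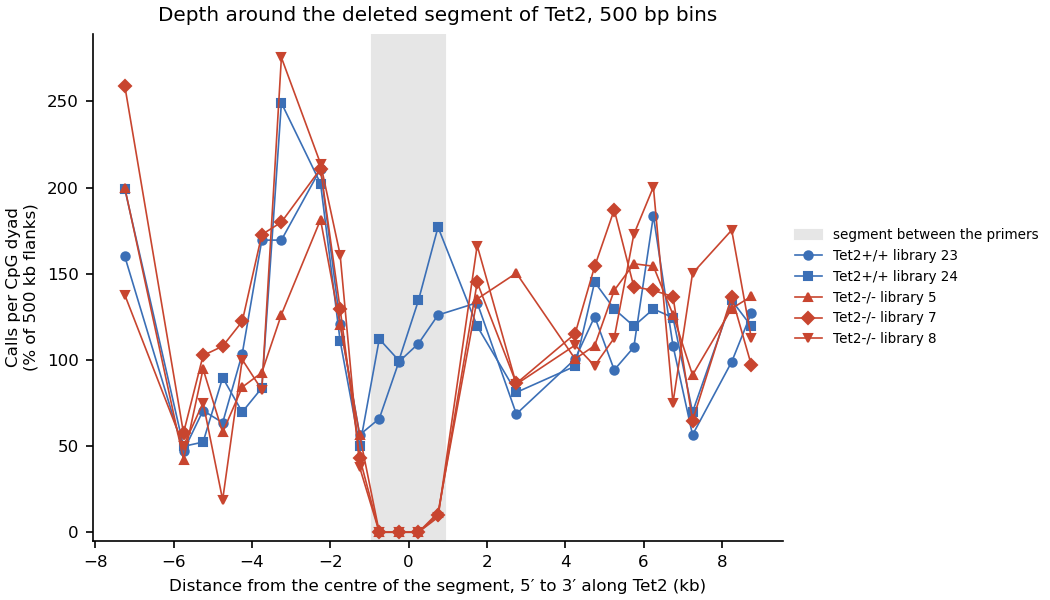
Calls per CpG dyad in 500 bp bins with at least 3 dyads within 10 kb of the centre of the deleted *Tet2* segment, as percent of the depth of 500 kb on each side, for the 5 libraries. The 3 Tet2-/- libraries fall to 0 in the shaded segment, apart from the bin that spans its 3′ edge, while the Tet2+/+ libraries stay between 65.9% and 177%.

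At promoters, from 1000 bp before to 1000 bp after the gene's 5′ end, the 9 genes fell into 2 sets that both genotypes shared. *Uhrf1*, *Tet2*, *Tdg*, *Dnmt3b* and *Dnmt3a* start in CpG-dense sequence, with 104 to 131 dyads, and had levels of 0.855% to 17.5%. *Dnmt1*, *Dnmt3l*, *Tet1* and *Tet3* start, by the outermost annotated 5′ end, in sequence with 19 to 32 dyads, and had levels of 58.9% to 93.0%. Of the 9 promoters, 0 were called with edgeR's quasi-likelihood test at an adjusted p of 0.05, 0 at an unadjusted p under 0.05 and 0 with limma. Among all 19455 promoters tested, 1.07% were called with edgeR and 0.93% with limma, and 18.1% had an unadjusted p under 0.05.

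The *Dnmt1* promoter (chr9:20958888-20960888) was methylated at 89.8% and 81.5% in Tet2+/+ and at 89.3%, 92.9% and 79.8% in Tet2-/- (edgeR adjusted p = 0.813). The *Uhrf1* promoter (chr17:56302321-56304321) was at 2.15% and 2.76% in Tet2+/+ and at 1.97%, 6.40% and 0.855% in Tet2-/- (adjusted p = 0.890). Both genes of the maintenance pair overlapped between the genotypes. The higher *Uhrf1* value of library 7 came from the 1 kb upstream of the gene, where that library was at 43.0% and the other 4 at 5% to 10.1%.

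For the de novo group, the *Dnmt3a* promoter (chr12:3805007-3807007) had levels of 17.2% and 13.0% in Tet2+/+ and 17.5%, 14.7% and 12.2% in Tet2-/- (edgeR adjusted p = 0.981). The *Dnmt3b* promoter (chr2:153648450-153650450) had 7.79% and 10.4% in Tet2+/+ and 10.3%, 7.42% and 11.3% in Tet2-/- (adjusted p = 0.955). The *Dnmt3l* promoter (chr10:78040947-78042947) had 80.1% and 71.0% in Tet2+/+ and 78.3%, 83.1% and 82.6% in Tet2-/- (adjusted p = 0.621). In none of these 3 did the groups separate.

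Among the erasers, *Tet1* (chr10:62907996-62909996) was at 89.8% and 77.8% in Tet2+/+ and at 83.9%, 93.0% and 78.0% in Tet2-/- (edgeR adjusted p = 0.835), on only 41 to 114 calls. The *Tet2* promoter (chr3:133544139-133546139) was at 4.05% and 2.29% in Tet2+/+ and at 3.21%, 2.63% and 3.60% in Tet2-/- (adjusted p = 0.972). *Tet3* (chr6:83458084-83460084) was at 58.9% and 60.5% in Tet2+/+ and at 65.8%, 81.3% and 70.9% in Tet2-/-, a difference of 13.0 points that did not pass the test (adjusted p = 0.359) and was 8.65 points without library 7. *Tet3* was the only member promoter whose groups did not overlap, with all Tet2-/- libraries above, an arrangement found at 32.8% of all promoters tested. None of the 9 had all Tet2-/- libraries below, against 4.05% of all promoters. The *Tdg* promoter (chr10:82628828-82630828) was at 3.45% and 2.74% in Tet2+/+ and at 6.97%, 4.81% and 3.09% in Tet2-/- (adjusted p = 0.449).

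Over the 9 promoters the differences ran from -0.30 to 13.0 points with a median of 1.20, beside a median of 2.22 over all promoters. With 1 library left out, the median of the members ran from 0.23 (without library 7) to 2.79 (without library 8). On limma's log2 scale, all promoters together were shifted by 0.38 towards methylation in Tet2-/-. After subtraction of the median of each library, *Tet3*, *Tdg* and *Dnmt3l* kept positive log2 differences (0.40, 0.11 and 0.03) and the other 6 had negative ones, from -0.15 to -0.53. None of the 9 passed limma's test on this scale, on which 40 of all promoters were called. Wilson 95% intervals of a single promoter level spanned up to 24.7 points, for *Tet1*, and cover counting error only.

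**Figure D2:**
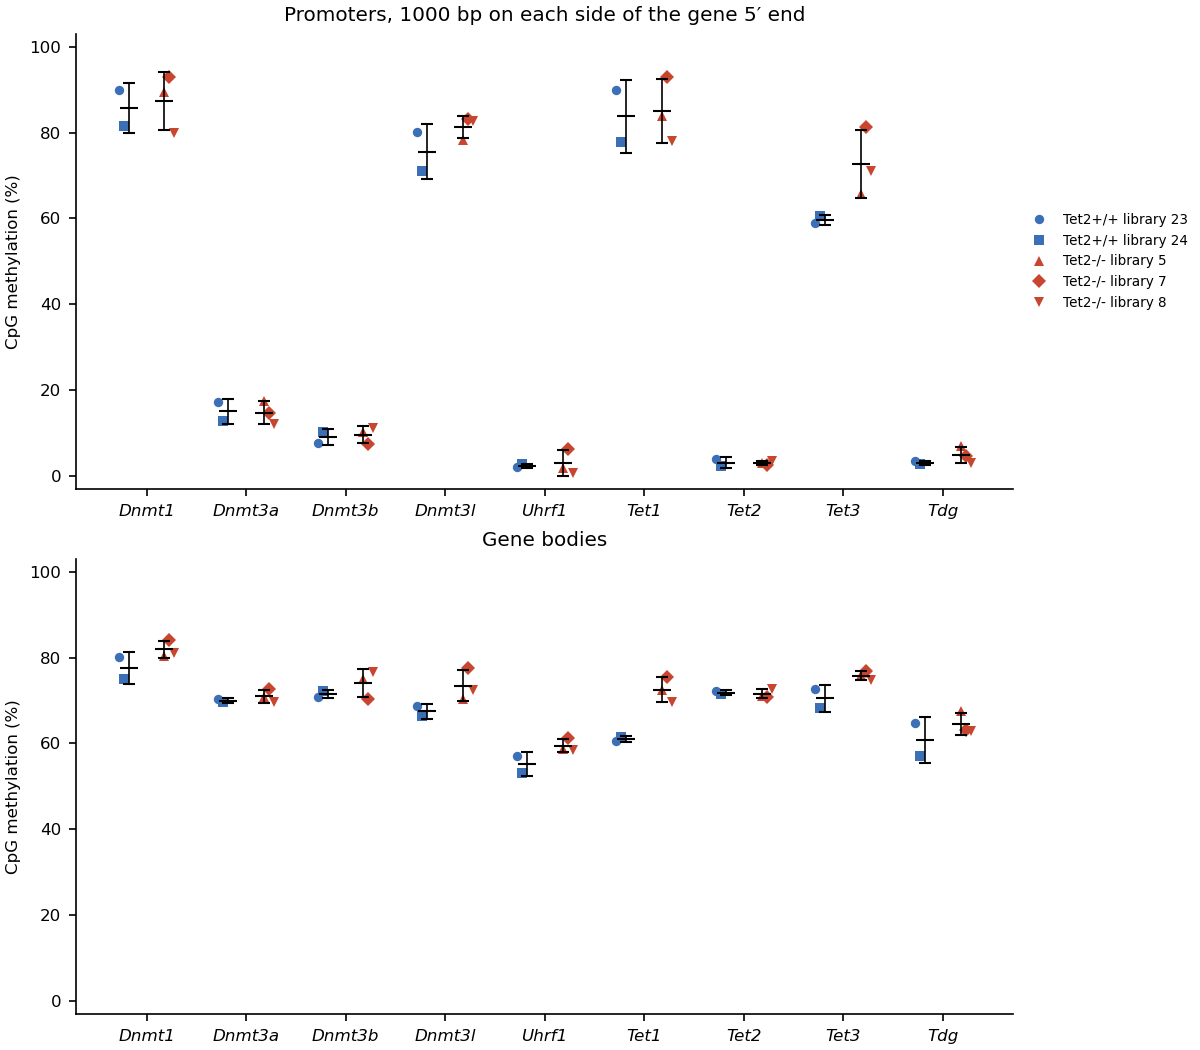
CpG methylation (percent) at the promoters (top) and gene bodies (bottom) of the 9 genes, 1 point per library, with bars for the group mean and 1 SD (n = 2 and 3). The promoters split into 5 at 17.5% or less and 4 at 58.9% or more in both genotypes, and among the gene bodies *Tet1* shows the widest gap, 60.5% and 61.6% against 69.6% to 75.5%.

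The genes with methylated outer 5′ ends have further annotated starts, and the CpG-dense ones among these were mostly unmethylated. Besides the 9 gene ends, 21 other starts of protein-coding transcripts lie more than 1000 bp from any start already counted, and 20 of them were tested. At the start of Dnmt1-201 (chr9, position 20952979, 75 dyads), the level was 6.28% and 4.96% in Tet2+/+ and 10.5%, 7.95% and 8.61% in Tet2-/-. Tet3-203 (chr6, 83456392, 174 dyads) was at 0.35% and 2.42% in Tet2+/+ and at 0.78%, 0.39% and 0.62% in Tet2-/-. Tet1-210 (chr10, 62887512, 78 dyads) was at 13.6% and 14.9% in Tet2+/+ and at 17.4%, 13.6% and 13.6% in Tet2-/-. These 3 internal starts thus had low levels in both genotypes while the outer 5′ ends of the same genes were methylated. *Dnmt3l*, which is known for its role in germ cells and early embryos, has no 1 kb window with 50 or more dyads. Its Dnmt3l-202 start, with 25 dyads, was at 24.5% and 27.4% in Tet2+/+ and at 19.1%, 40.5% and 18.2% in Tet2-/-, and its Dnmt3l-201 start at 84.1% and 85.4% against 89.5%, 93.6% and 89.5%. *Dnmt3a* has the most starts. Its CpG-dense starts Dnmt3a-201 (259 dyads) and Dnmt3a-205 (74 dyads) were at 0.00% to 4.27%, and its 5 CpG-poor starts at 71.3% or more in every library.

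None of the 20 other starts was called with edgeR (0 of 20, with 2.32% of 10455 called) or with limma (0 of 20, with 2.27% called). At an unadjusted p under 0.05 there were 3, against 19.9% of all other starts. Tet1-205 (chr10, 62814540, near the 3′ end of *Tet1*) was at 65.5% and 73.7% in Tet2+/+ and at 87.6%, 87.5% and 87.5% in Tet2-/- (edgeR adjusted p = 0.103). Dnmt3a-213 was at 85.9% and 84.1% in Tet2+/+ and at 89.9%, 98.8% and 94.3% in Tet2-/- (edgeR adjusted p = 0.188). Tet3-202, a start of intermediate level with 86 dyads, was at 19.4% and 25.1% in Tet2+/+ and at 41.2%, 46.3% and 24.6% in Tet2-/- (edgeR adjusted p = 0.237), and library 8 lay within the Tet2+/+ range. All Tet2-/- libraries lay above both Tet2+/+ libraries at 7 of 20 starts, against 38.4% of all other starts. 

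**Figure D3:**
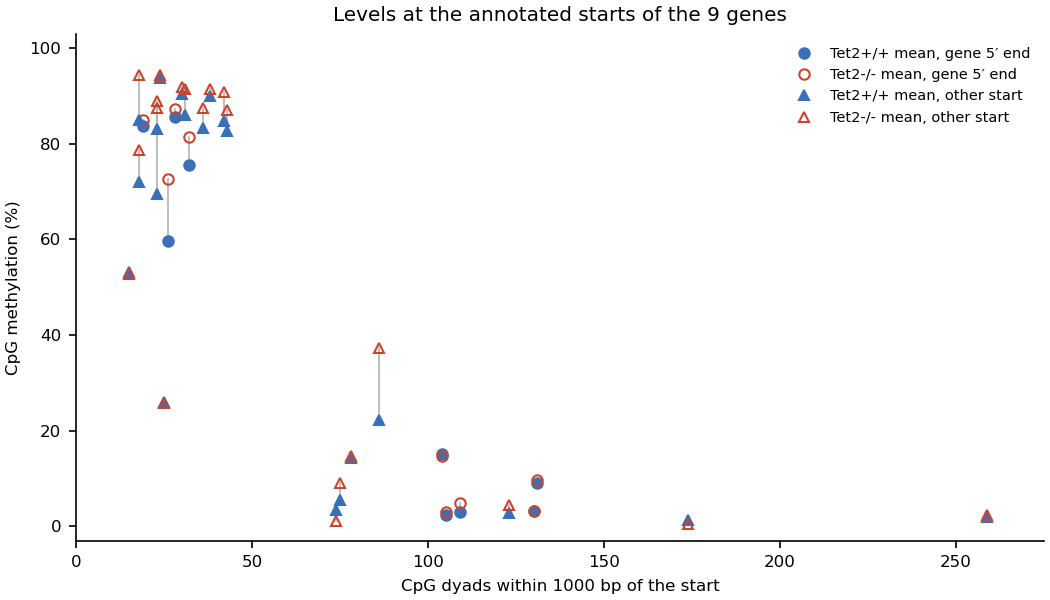
Mean CpG methylation (percent) at the 9 gene 5′ ends (circles) and 20 other starts (triangles) against the number of CpG dyads within 1000 bp, for Tet2+/+ (filled, n = 2) and Tet2-/- (open, n = 3), with a line joining both means of a start. Starts with 74 or more dyads lie at or under 15.1% apart from Tet3-202 (22.2% and 37.4%), and the others at or above 52.8% apart from Dnmt3l-202 (25.9% in both groups).

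Within the gene bodies, the whole annotated span of the gene, the levels were between 53.2% and 84.1% in all libraries. *Tet1* was called, with higher methylation in Tet2-/-, and the other 8 were not. Thus 1 of 9 bodies was called with edgeR, against 15.5% of all 20715 gene bodies tested, and 1 of 9 had an unadjusted p under 0.05, against 29.2% of all. All Tet2-/- libraries were above both Tet2+/+ libraries in 5 of 9 bodies (46% of all bodies) and below them in 0 (1.46% of all). The member differences ran from -0.28 points (*Tet2*, with its deleted segment included) to 11.5, with a median of 4.33, beside 4.95 over all gene bodies. That median was 6.89 without library 23 and 2.40 without library 24.

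The *Tet1* body (chr10:62804570-62908996, 104427 bp and 1214 dyads) was methylated at 60.5% and 61.6% in Tet2+/+ and at 72.5%, 75.5% and 69.6% in Tet2-/-. Tet2+/+ averaged 61.0% ± 0.75 (SD, n = 2) and Tet2-/- averaged 72.5% ± 2.94 (SD, n = 3), 11.5 points apart (edgeR adjusted p = 0.0287), on 3989 to 7429 calls per library. Of all gene bodies, 85.7% had a smaller difference than *Tet1*. The call was not made by limma (adjusted p = 0.0912, with 2.34% of all bodies called), nor by edgeR without the first 1000 bp of the gene (adjusted p = 0.0948, difference 11.5 points). It was also lost without library 23 (adjusted p = 0.139), 24 (adjusted p = 0.350) or 5 (adjusted p = 0.157), while the difference stayed between 9.99 and 12.9 points whichever library was left out.

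*Tet2*, by contrast, had nearly the same body level in both groups, 72.2% and 71.5% in Tet2+/+ and 71.0%, 70.9% and 72.8% in Tet2-/- (chr3:133463679-133545139, edgeR adjusted p = 0.962). Since the deleted segment, which is highly methylated, contributes to the Tet2+/+ level only, the body was also measured without it. It was then at 71.0% ± 0.54 (n = 2) and 71.6% ± 1.02 (n = 3), 0.60 points apart (exact permutation p = 0.6). In the 10 kb on each side of the segment, the level was 86.0% and 83.1% in Tet2+/+ and 88.8%, 93.1% and 87.9% in Tet2-/-, 5.36 points higher on average (exact permutation p = 0.1). *Tet3* (chr6:83362373-83459084) was at 72.8% and 68.3% in Tet2+/+ and at 75.9%, 76.8% and 74.7% in Tet2-/- (edgeR adjusted p = 0.327). The *Tdg* body (chr10:82629828-82650799) was at 64.7% and 57.0% in Tet2+/+ and at 67.5%, 63.3% and 62.8% in Tet2-/- (adjusted p = 0.549). The groups were apart in *Tet3*, though not by a called difference, and overlapped in *Tdg*.

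For the writers, *Dnmt1* (chr9:20907209-20959888) had body levels of 80.1% and 75.0% in Tet2+/+ and 80.5%, 84.1% and 81.1% in Tet2-/- (edgeR adjusted p = 0.298). *Uhrf1* (chr17:56303321-56323486) had 57.1% and 53.2% in Tet2+/+ and 58.8%, 61.2% and 58.5% in Tet2-/- (adjusted p = 0.457). *Dnmt3l* (chr10:78041947-78063622) had 68.8% and 66.3% in Tet2+/+ and 70.5%, 77.5% and 72.5% in Tet2-/- (adjusted p = 0.222). In these 3 every Tet2-/- library was above both Tet2+/+ libraries. *Dnmt3a* (chr12:3806007-3914443) had 70.4% and 69.6% in Tet2+/+ and 70.8%, 72.6% and 69.6% in Tet2-/- (adjusted p = 0.877), and *Dnmt3b* (chr2:153649450-153687730) had 70.8% and 72.1% in Tet2+/+ and 75.0%, 70.4% and 76.7% in Tet2-/- (adjusted p = 0.598). The groups overlapped in both.

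Since 87.9% of all gene bodies had a higher mean in Tet2-/-, the members were also set against the shift of all bodies, 0.37 on limma's log2 scale. After subtraction of the median of each library, *Tet1* kept a positive difference of 0.34 (limma adjusted p = 0.328). The other 8 bodies were then at or below the common shift, with *Tet2* (-0.44) and *Dnmt3a* (-0.35) lowest. The *Tet2* value includes its deleted segment, and this fit was not run without it. Body levels also depend on the share of calls in CpG-dense sequence, and this fit was not run without such sequence. None of the 9 passed on this scale, on which limma called 6 of all gene bodies, or 271 with the variance trend taken on coverage.

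**Figure D4:**
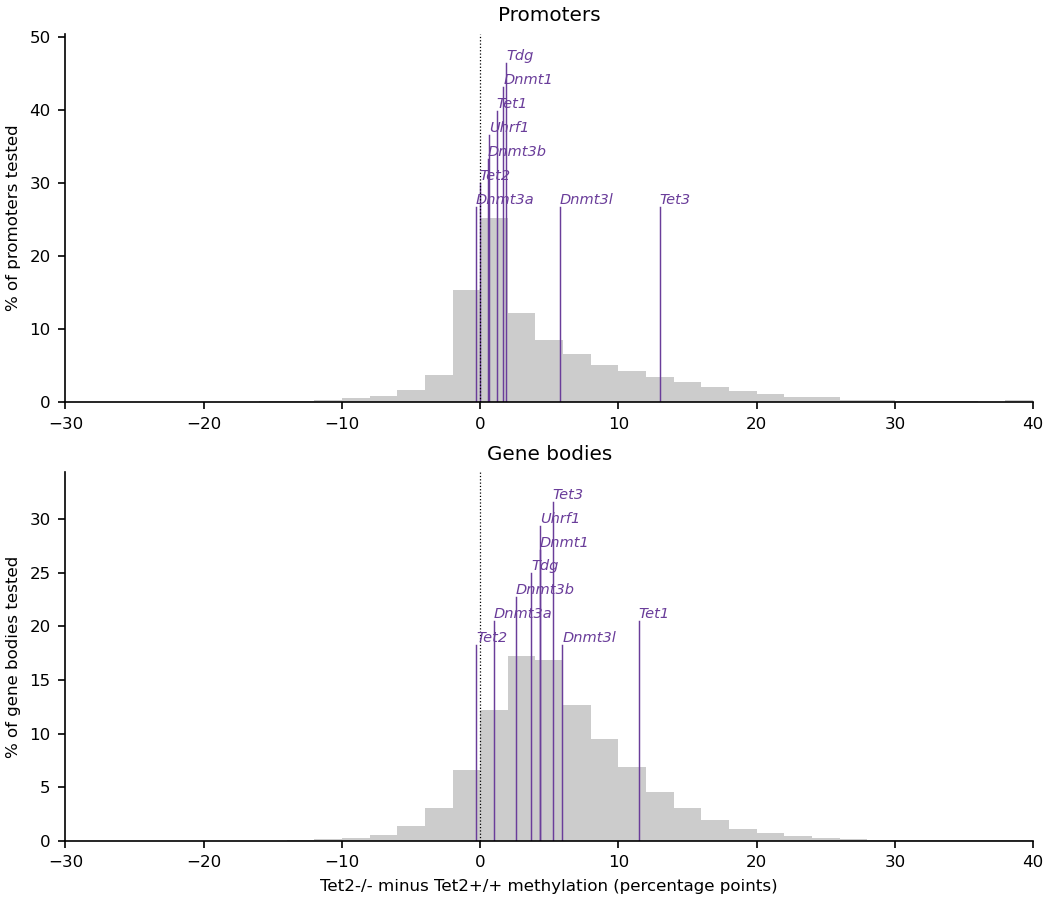
Distribution of the Tet2-/- minus Tet2+/+ difference in CpG methylation (percentage points, 2-point bins, values beyond the axis in the outermost bins) over all promoters (top) and gene bodies (bottom) tested, in percent of regions, with lines for the 9 genes. The members spread through the bulk of both distributions, with *Tet3* at 13.0 among promoters and *Tet1* at 11.5 among gene bodies on the higher side.

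To place the differences along the genes, fixed 5 kb tiles of the genome were tested. Of the 118 tiles that overlap a member, 6 were called with edgeR, all with higher methylation in Tet2-/-, against 3.24% of all 488658 tiles tested. Limma called 1 of the 6, and 1.59% of all tiles. All Tet2-/- libraries were above both Tet2+/+ libraries in 59 of the 118 tiles, against 36.6% of all tiles, and below in 3, against 1.28%. The tiles of the genome include those outside genes, so these shares are not from like regions. Among 300 bp windows in and around genes, they were above in 31.2% of member windows, beside 30.4% over all genes. The called tiles lay in *Tet1* (4), *Dnmt1* (1) and *Dnmt3b* (1).

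In *Tet1*, all 22 tiles had a higher mean in Tet2-/-, by 12.5 points in the median, beside 86.7% of all tiles with a higher mean and a median of 6.14 points, and in 19 of the 22 the groups were apart. The called tile with the largest difference, chr10:62870001-62875000, is intronic and centred 36496 bp from the 5′ end. It was at 62.2% and 56.5% in Tet2+/+ and at 83.9%, 85.9% and 77.0% in Tet2-/- (difference 22.8 points, edgeR adjusted p = 0.0157), and holds the window printed above. The tile at chr10:62840001-62845000, with 1 exon, was at 64.1% and 72.8% in Tet2+/+ and at 88.2%, 91.0% and 85.0% in Tet2-/- (adjusted p = 0.00628). At chr10:62810001-62815000, with 3962 bp of exon towards the 3′ end of the gene, the level was 66.4% and 72.5% in Tet2+/+ and 86.8%, 90.3% and 86.5% in Tet2-/- (adjusted p = 0.0101). The fourth, chr10:62830001-62835000, was at 76.2% and 82.3% in Tet2+/+ and at 93.0%, 94.8% and 91.2% in Tet2-/- (adjusted p = 0.0187). All 4 lost the call with limma and without library 23, 24 or 5, with the difference staying between 10.6 and 25.7 points. The tile around the CpG-dense start, at 21496 bp, was the least methylated, at 19.6% and 18.3% in Tet2+/+ and 27.9%, 26.3% and 19.8% in Tet2-/-, and was not called (adjusted p = 0.418).

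The called *Dnmt3b* tile, chr2:153675001-153680000, lies 28050 bp from the 5′ end and holds 6 exons. Its level was 49.5% and 62.2% in Tet2+/+ and 82.7%, 94.0% and 88.0% in Tet2-/-, a difference of 32.4 points (edgeR adjusted p = 5.68e-05, limma adjusted p = 0.000582). The tiles next to it were methylated at 85.2% to 96.7%, and both Tet2+/+ libraries were far below their own levels there. Libraries 5 and 8 were lower in the called tile than next to it by less, from 91.2% and 92.6% in library 5 and from 90.1% and 92.0% in library 8. The call was lost without library 23 (adjusted p = 0.0600, difference 26.0 points) and with limma after centring of the libraries (adjusted p = 0.0854). Library 5 had a reduced depth over this gene, 0.730 of its genome mean within 100 kb of *Dnmt3b*, against 1.02 to 1.16 in the other libraries. The reduced depth extended over 21 successive blocks of 5 Mb of chromosome 2, from 60 to 165 Mb, at 0.650 to 0.685 of the mean of the other 4 libraries, and the rest of the chromosome was at 0.957 to 1.04. Without library 5 the tile had a difference of 35.1 points (adjusted p = 0.000644). Of the 9 *Dnmt3b* tiles, 7 had a higher mean in Tet2-/-, against 86.7% of all tiles. Near the start, chr2:153650001-153655000 was at 72.1% and 72.0% in Tet2+/+ and at 67.2%, 59.7% and 62.4% in Tet2-/-, which did not pass (adjusted p = 0.411).

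**Figure D5:**
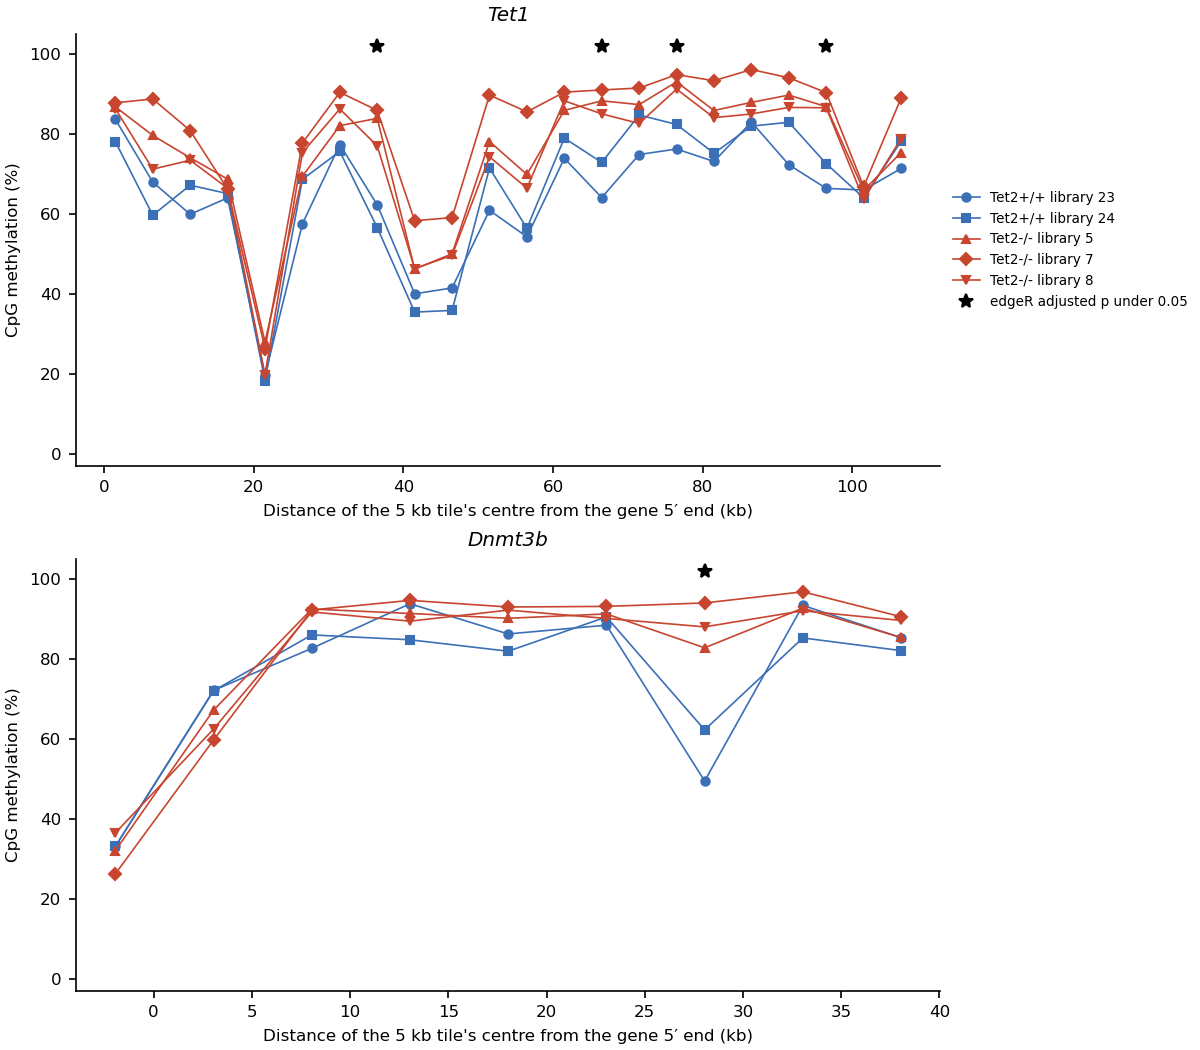
CpG methylation (percent) of the 5 kb tiles of *Tet1* (top) and *Dnmt3b* (bottom) against the distance of the tile's centre from the gene 5′ end (kb), 1 line per library, with stars over tiles called by edgeR. In *Tet1* the Tet2-/- lines run above the Tet2+/+ lines along most of the gene, and in *Dnmt3b* they part mainly in the tile 28050 bp from the 5′ end, at 49.5% and 62.2% against 82.7% to 94.0%.

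The called *Dnmt1* tile, chr9:20905001-20910000, spans the 3′ end of the gene. It was at 89.4% and 80.7% in Tet2+/+ and at 92.0%, 95.6% and 91.5% in Tet2-/- (difference 7.996 points, edgeR adjusted p = 0.0381), and the call was lost with limma (adjusted p = 0.261) and without library 24 (difference 3.64 points), 5 or 7. The most different *Dnmt1* tile by size, chr9:20920001-20925000, differed by 8.24 points and was not called (adjusted p = 0.0726). In *Tet3* the largest difference was 17.4 points, in chr6:83450001-83455000, at 57.3% and 56.4% in Tet2+/+ and 73.6%, 79.5% and 69.6% in Tet2-/- (adjusted p = 0.0733). For the other 5 genes the largest differences were 13.8 points in *Uhrf1* (chr17:56305001-56310000, adjusted p = 0.185), 12.1 in *Dnmt3l* (chr10:78040001-78045000, adjusted p = 0.281), 10.6 in *Tet2* (chr3:133515001-133520000, adjusted p = 0.162), 8.56 in *Dnmt3a* (chr12:3840001-3845000, adjusted p = 0.290) and 6.44 in *Tdg* (chr10:82625001-82630000, adjusted p = 0.593). None of these 5 passed the test, and only 173 bp of the *Tdg* tile lie in the gene. With 1 library left out, the difference came down to 6.73 points in *Dnmt3l* (without library 8), 5.04 in *Dnmt3a* (without library 7) and 3.42 in *Tdg* (without library 24).

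The genes were also split into 8 annotated parts, some of which overlap each other (first exons, later exons, introns, later exons and introns without CpG-dense windows, those windows, and 1 kb upstream and downstream). All Tet2-/- libraries were above both Tet2+/+ libraries in 35 of the 71 parts tested, against 41.7% of the same parts over all genes, and below in 1, against 2.59%. In introns outside CpG-dense windows they were above in 8 of 9 genes, against 57.0% of all genes. The median difference there was 5.33 points, beside 6.24 over all genes. *Dnmt3a*, *Dnmt3b* and *Tet2*, whose whole bodies overlapped, differed there by 2.31, 2.19 and 2.66 points. With a library left out these came down to 1.19, 1.56 and 0.99 points. The largest differences were in the 1 kb downstream of *Tdg* (17.9 points), *Tet2* (17.1) and *Dnmt1* (15.6), which hold 9 to 20 dyads and rested on 20 to 150 calls per library. In these 3 library 24 was the lowest, at 62.5%, 54.1% and 66.2%, and the exact permutation p was 0.1, 0.2 and 0.1. Without library 24 the difference was 6.88 points in *Tdg* and 3.69 in *Dnmt1*. In *Tet2* it came down to 11.1 points, without library 7. In the CpG-dense 1 kb windows (50 or more dyads), which 8 of the 9 genes hold, every library was at or under 8.42%. In 2 of these 8 genes all Tet2-/- libraries were above both Tet2+/+ libraries, against 24.4% of all genes. The groups were apart there in *Tet3*, at 3.21% and 2.06% in Tet2+/+ and 5.84%, 7.88% and 5.88% in Tet2-/- (exact permutation p = 0.1), and in *Dnmt3b*, at 5.67% and 3.80% against 5.95%, 6.95% and 8.42% (exact permutation p = 0.2). The *Dnmt3b* difference there, 2.37 points, was 1.44 points without library 24. *Tet1* introns were at 57.9% and 59.6% in Tet2+/+ and at 71.0%, 74.3% and 67.4% in Tet2-/-, and its exons after the first at 71.3% and 73.4% against 81.9%, 85.9% and 79.9% (differences 12.2 and 10.2 points, exact permutation p = 0.1 for each). The later exons of *Dnmt3b*, which hold the called tile's exons, were at 77.6% and 79.8% in Tet2+/+ and at 88.7%, 91.0% and 92.3% in Tet2-/- (11.9 points, exact permutation p = 0.1). Its introns differed by 2.89 points (exact permutation p = 0.2), and by 1.45 points without library 5. The first exons of *Dnmt3a*, the 1 part with all Tet2-/- libraries below, were at 63.7% and 57.8% in Tet2+/+ and at 57.5%, 52.4% and 54.1% in Tet2-/- (difference -6.11 points, exact permutation p = 0.2). That difference was -3.14 points without library 23 and -9.08 without library 24. The part pools 10 first exons from CpG-dense and CpG-poor starts, so its level also depends on where the calls fell. The CpG-dense windows of *Dnmt3a* had 423 and 381 calls in Tet2+/+ and 644, 985 and 480 in Tet2-/-. Each CpG-poor *Dnmt3a* start had a higher mean in Tet2-/-, by 0.75 to 9.35 points, while Dnmt3a-205 was 2.27 points lower. The part played by the calls was not tested.

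Partners of the 9 genes were read from the same tests, as a list of 45 genes of 4 kinds. These were readers and partners of methylation (18 genes), excision repair and deamination (12), supply of cofactors and substrates (10) and transcription factors that recruit TET2 (5). Among their promoters 0 were called with edgeR and 0 with limma, and 6 of 45 had an unadjusted p under 0.05, beside the 18.1% of all promoters. The promoter differences had a median of 1.54 points, beside 2.22 over all promoters. Among their gene bodies 6 were called, all higher in Tet2-/-, out of 45, beside the 15.5% of all bodies, and limma called 0. The body differences had a median of 4.01 points, beside 4.95 over all bodies, and 40 of 45 were positive, beside 87.9% of all bodies.

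The called bodies included 2 of the 5 recruiters, beside the 15.5% of all bodies. *Wt1*, a zinc finger factor that binds TET2, was at 52.5% and 42.6% in Tet2+/+ and at 63.6%, 61.6% and 56.4% in Tet2-/- (edgeR adjusted p = 0.0150). *Spi1*, which encodes the myeloid factor PU.1, was at 49.5% and 40.1% in Tet2+/+ and at 53.6%, 59.6% and 54.7% in Tet2-/- (adjusted p = 0.0372). In both the Tet2-/- libraries were all higher, and limma called neither (limma adjusted p = 0.105 for *Wt1* and 0.142 for *Spi1*). Both genes lie in the stretch of chromosome 2 where library 5 had reduced depth, *Wt1* at chr2:105126529-105173616 and *Spi1* at chr2:91082390-91115756. Without library 5 neither was called, with differences of 11.4 points for *Wt1* (edgeR adjusted p = 0.164) and 12.3 for *Spi1* (adjusted p = 0.103). Without library 24 the differences were 7.99 and 6.43 points, also not called. Of the repair and deamination genes, *Neil2*, a DNA glycosylase, was at 58.2% and 50.8% in Tet2+/+ and at 61.7%, 71.5% and 69.0% in Tet2-/- (adjusted p = 0.0366). *Gadd45b*, a stress-induced gene tied to demethylation, was at 4.70% and 3.28% in Tet2+/+ and at 2.49%, 22.3% and 7.30% in Tet2-/- (adjusted p = 0.0346). Its groups overlapped, and without library 7 the difference was 0.90 points. Of the readers, *Mbd2*, which binds methylated CpGs, was at 72.7% and 69.9% in Tet2+/+ and at 79.3%, 80.3% and 79.1% in Tet2-/- (adjusted p = 0.0384). The list's count changed with the libraries used: it was 3 without library 23, 0 without 24, 2 without 5, 2 without 7 and 3 without 8.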

How the data were processed

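Genomic DNA of sorted blasts was bisulfite converted and sequenced on an Illumina NextSeq 500 after random-primed library preparation. Per the submitters' processing notes, the authors used FastQC 0.11.7, Trim Galore 0.4.3, Bismark 0.19.1 and Bowtie2, with GRCm38 (mm10). The deposited values are counts of methylated and unmethylated calls per CpG cytosine, not normalized, with libraries kept separate. Counts of both strands were added per dyad.

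Members and lists were chosen with earlier results of these data known. Groups were taken from the sample titles. Promoters, other starts, gene bodies (GENCODE vM21) and 5 kb tiles, each with a minimum of 20 calls per library, were tested over all regions with edgeR 4.0.16 in R 4.3.3, as a quasi-likelihood test on both columns of counts with a coefficient per library, adjusted by Benjamini-Hochberg at 0.05. Limma 3.58.1 on log2((methylated + 2)/(unmethylated + 2)) was the alternative, also after subtraction of each library's median. Single values were compared with an exact two-sided permutation test over 10 splits. The fits were tested on simulated data in which unchanged regions had a common level in all libraries. The shift of most regions between the groups was left out there, so calls under such a shift were not tested. RefSeq promoters of GRCm38 matched all 9 members. Named tiles were those called and the most different tile of each member, with 2 more near starts of *Tet1* and *Dnmt3b* chosen after their values were seen. Named partners were the called genes of the list, up to 6 per kind of region. The values of 1 called partner are not reported here. Printed windows were taken in order of the size of their difference. P-values rest on the spread between these 5 libraries, and no batch was named in the sources used here. Those of edgeR and limma use variances moderated over all regions tested. The exact permutation test gives no p under 0.1. Intervals and upper limits cover counting error only, since position-based removal of duplicates does not count molecules.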

Additional observations from a re-analysis of the deposited data

How the results depend on the processing

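No paired analysis was possible because the Tet2+/+ and Tet2-/- libraries share no number. Across the settings tried, values of single regions stayed the same in 556 cases, lost the threshold in 77, changed sign in 49 and moved in 2. For tested regions, the same meant an unchanged direction and side of the threshold. Parts of genes had no threshold, and for them the same meant a shift smaller than the larger group SD. Only parts whose groups did not overlap were included. Leaving out 1 library cannot shift their difference by that much or change its sign. Those cases among the 556 were therefore fixed in advance and show no stability. The called member gene bodies numbered 1, and 0 with limma, with limma after centring of the libraries (under either variance trend, the trend on coverage having been chosen after seeing the data) and without the first 1000 bp. Leaving out each library gave 0 to 1. The 6 called partner gene bodies became 0 under limma and under both centred fits, and 0 to 3 with a library left out, and 1 partner promoter was called by edgeR's likelihood ratio test, against 0. The 6 called tiles became 1 with limma, 0 with limma after centring, and 1 to 7 with a library left out. The median gene body difference was 2.40 to 6.89 points with a library left out. For the 9 members, counts of 0 called promoters and 0 called other starts were the same in every setting run. The cause of these changes was not tested.

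Signs changed in regions that were not called. After centring, the promoter log2 differences were -0.39 in *Dnmt3b*, -0.15 in *Dnmt1*, -0.21 in *Tet1* and -0.53 in *Uhrf1*, and those of gene bodies -0.23 in *Dnmt3b*, -0.036 in *Tet3*, -0.037 in *Dnmt1*, -0.00062 in *Dnmt3l*, -0.19 in *Tdg*, -0.35 in *Dnmt3a* and -0.16 in *Uhrf1*, with -0.13 for the *Tdg* tile. With calls thinned to the shallowest library, promoter differences were -0.90 points in *Dnmt3b*, 0.47 in *Tet2*, 0.63 in *Dnmt3a* and -0.069 in *Uhrf1*. With 500 bp on each side they were 0.39 in *Tet2*, -0.60 in *Tdg* and -0.63 in *Uhrf1*, and with 2000 bp -4.42 in *Dnmt3b* and 0.16 in *Tet2*. With dyads called in all 5 libraries they were 0.65 in *Dnmt3a*, and 1.01 for the *Tet2* body, which was 2.29 without its first 1000 bp. With a library left out, promoter differences ran from -0.74 to 1.88 in *Dnmt3b*, -0.91 to 0.86 in *Tet2*, -2.48 to 5.81 in *Dnmt1*, -4.81 to 7.21 in *Tet1*, -2.42 to 1.82 in *Dnmt3a* and -1.04 to 1.73 in *Uhrf1*, and body differences from -0.87 to 0.096 in *Tet2* and -0.14 to 7.54 in *Tdg*. Groups of 2 and 3 libraries limit every test, and 41 to 114 calls the *Tet1* promoter.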
